A study of Drosophila melanogaster with 2 samples.

Results

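Of 3816 peaks of the Pumilio-eGFP fusion protein in fly embryo chromatin, 755 (19.8%, 95% Wilson interval 18.6 to 21.1%) lay at divergent promoter pairs. These peaks had a summit within 500 bp of an annotated transcript start of at least 1 plus-strand and at least 1 minus-strand protein-coding gene. Before that rule was applied, a summit within 250 bp of a stronger one was dropped, and 812 of 3970 rows met the rule without that step. The members touched 1549 different protein-coding genes. The remaining peaks lay at promoters of 1 protein-coding gene (1092), at promoters of several genes on 1 strand (31) or within 500 bp of no protein-coding start (1938).

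The study profiled Pum-eGFP by ChIP-seq in Drosophila melanogaster, with 2 biological replicates, numbered 2 and 3, in a single group. The flies were of the Pum-MiMIC-GFP strain, in which an eGFP exon inserted in an intron of pum makes a fusion of the protein with the fluorescent tag. Whole embryos of mixed sex were collected at 0 to 24 h, the chromatin was sonicated to fragments of 200 to 800 bp, and the precipitation used an antibody against GFP. All embryonic tissues were therefore mixed, and both replicates carried the same insertion. No library from embryos without the tag or without the antibody was analysed here. The deposited files are peak lists, so read depth is unknown, and every interval below covers counting error over peaks or pairs only. The signal of a peak is the authors' own value and ranks peaks within 1 list.

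In the compact fly genome many neighbouring genes are transcribed away from each other out of a shared, short stretch of DNA, which is depleted of nucleosomes and serves both promoters. Such head-to-head pairs are frequent among housekeeping genes, and their promoters often carry DRE, the site of the factor Dref, or the Ohler elements, rather than the TATA box and Initiator of developmentally regulated genes. Pum is known as an RNA-binding repressor that recruits deadenylases to messenger RNAs, and it has no known DNA-binding domain.

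The DNA between the starts is shown for the 5 strongest peaks with a summit between divergent starts that were 60 to 300 bp apart with no annotated exon between them. The strongest peak of that spacing with each of 5 elements between the starts and near the summit is shown as well, and peaks of 1 chromosome arm are not shown. Each run holds the bases between the start of the minus-strand gene, named first, and that of the plus-strand gene, read 5′ to 3′ on the plus strand of Release 6 (dm6) as RefSeq gives it. Capitals mark matches on either strand to DRE (TATCGATA), its core CGATA, which lies inside DRE, the E-box CAGCTG, the Pum element TGTANATA, and Ohler 1, Ohler 6 and Ohler 7. The first 5 are at chr3R:15229409-15229664, chr3L:5139396-5139618, chr3L:9426759-9427009, chr3R:29736746-29736964 and chr3R:8650797-8651083, and their summits lie at bases 112, 107, 150, 108 and 166 of the runs.
Art3/mRpS10: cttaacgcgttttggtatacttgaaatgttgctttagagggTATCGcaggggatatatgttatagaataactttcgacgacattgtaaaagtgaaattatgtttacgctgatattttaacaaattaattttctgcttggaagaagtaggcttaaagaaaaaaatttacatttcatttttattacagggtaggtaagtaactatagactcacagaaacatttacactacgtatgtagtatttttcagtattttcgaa
Tcs5/CHMP2B: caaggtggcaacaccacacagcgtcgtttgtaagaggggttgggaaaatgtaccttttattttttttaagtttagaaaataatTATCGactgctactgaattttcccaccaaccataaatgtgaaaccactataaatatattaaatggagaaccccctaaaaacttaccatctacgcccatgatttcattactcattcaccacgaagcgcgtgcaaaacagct
Atat/Shc: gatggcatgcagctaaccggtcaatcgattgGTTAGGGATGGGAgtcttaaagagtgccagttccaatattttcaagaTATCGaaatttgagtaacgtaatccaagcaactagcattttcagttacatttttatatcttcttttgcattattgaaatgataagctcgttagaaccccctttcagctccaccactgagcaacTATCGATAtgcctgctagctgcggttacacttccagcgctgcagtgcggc
CG7601/CIA30: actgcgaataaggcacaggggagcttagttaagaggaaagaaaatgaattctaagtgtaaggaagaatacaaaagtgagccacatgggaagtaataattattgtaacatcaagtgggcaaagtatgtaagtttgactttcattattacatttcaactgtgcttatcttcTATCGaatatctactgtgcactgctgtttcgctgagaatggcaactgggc
Mkk4/SLIRP2: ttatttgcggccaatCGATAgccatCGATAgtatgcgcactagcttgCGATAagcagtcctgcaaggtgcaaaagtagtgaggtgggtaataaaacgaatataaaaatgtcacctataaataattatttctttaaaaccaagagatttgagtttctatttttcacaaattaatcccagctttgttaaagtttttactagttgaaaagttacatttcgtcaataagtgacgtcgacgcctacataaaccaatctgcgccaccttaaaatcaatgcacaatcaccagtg
The runs are rich in A and T, with a GC content from 30.1% at Art3/mRpS10 to 43.0% at Atat/Shc, and the summit fell away from both ends in each. In Atat/Shc a DRE lay toward the Shc start and an Ohler 7 match toward the Atat start. In Mkk4/SLIRP2 all 3 core matches lay at the Mkk4 end.

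The next 5 runs are at chr3L:19612200-19612454, chr3R:25247515-25247657, chr3R:5654862-5655138, chr3R:9404270-9404384 and chr2L:13387313-13387570, and were chosen for Ohler 7, the E-box, Ohler 6, Ohler 1 and the Pum element, in that order. The summit lies at base 96 of Lon/PIG-F, base 19 of RpS27/Nup37, base 112 of elm/MED27 and base 133 of Ing5/CG7099, while that of CG9356/CG8135 fell 22 bp beyond the run, inside CG9356.
Lon/PIG-F: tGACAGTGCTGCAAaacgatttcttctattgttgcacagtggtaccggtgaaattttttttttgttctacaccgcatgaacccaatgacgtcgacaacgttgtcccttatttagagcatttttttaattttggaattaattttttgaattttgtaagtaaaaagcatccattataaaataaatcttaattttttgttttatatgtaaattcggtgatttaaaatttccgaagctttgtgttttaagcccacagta
RpS27/Nup37: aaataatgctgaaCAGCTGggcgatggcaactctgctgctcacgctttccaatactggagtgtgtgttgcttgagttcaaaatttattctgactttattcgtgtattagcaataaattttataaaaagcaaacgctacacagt
elm/MED27: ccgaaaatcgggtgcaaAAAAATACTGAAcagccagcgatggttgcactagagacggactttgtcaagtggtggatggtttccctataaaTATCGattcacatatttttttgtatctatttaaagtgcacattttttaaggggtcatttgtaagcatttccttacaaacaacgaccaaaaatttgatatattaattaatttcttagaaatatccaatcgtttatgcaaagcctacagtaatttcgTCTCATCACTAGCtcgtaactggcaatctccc
CG9356/CG8135: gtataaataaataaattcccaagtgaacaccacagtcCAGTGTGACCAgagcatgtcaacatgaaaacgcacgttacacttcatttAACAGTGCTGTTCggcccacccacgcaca
Ing5/CG7099: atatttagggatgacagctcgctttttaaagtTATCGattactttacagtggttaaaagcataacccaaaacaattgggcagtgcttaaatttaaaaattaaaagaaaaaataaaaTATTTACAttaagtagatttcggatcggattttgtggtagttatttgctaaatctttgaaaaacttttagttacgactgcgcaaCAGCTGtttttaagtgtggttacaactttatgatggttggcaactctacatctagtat
The Ohler 7 match of Lon/PIG-F began at base 2, beside the Lon start, while the Pum element of Ing5/CG7099 lay close to the summit and away from both starts. A match is a stretch of letters and not a measured site.

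Most summits lay between the opposite starts. The minus-strand start was to the left of the plus-strand start at 744 of 755 members (98.5%), which is the divergent order. Most annotated opposite-strand pairs have this order with or without a peak, at 2615 of the 2720 with starts up to 1000 bp apart. At members, 636 summits (84.2%, Wilson interval 81.5 to 86.7%) fell between both starts. Among divergent members the starts were a median of 278 bp apart (quartiles 207 and 375 bp), from 6 bp at CG3032/CG4593 to 717 bp at CG2246/CG31021. The median summit stood 116 bp upstream of the minus-strand start and 130 bp upstream of the plus-strand start. At peaks of 1-gene promoters the median was 123 bp upstream, with 933 of 1092 (85.4%) upstream. Regardless of side, the start was a median of 147 bp away at 1-gene promoters.

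Neither strand was favoured, which does not show whether summits favoured 1 gene of each pair. The minus-strand start was the nearer one at 381 members and the plus-strand start at 373, with 1 member equally near to both. Of the 636 summits between the starts, 248 (39.0%) fell in the central of 3 equal parts of the interval, and the median position was 0.505 of the way from the minus-strand start to the plus-strand start (quartiles 0.283 and 0.708). The nearer start was a median of 75 bp away and the farther one 201 bp. Of the divergent members, 64 had the summit inside the minus-strand gene and 44 inside the plus-strand gene.

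**Figure D1:**
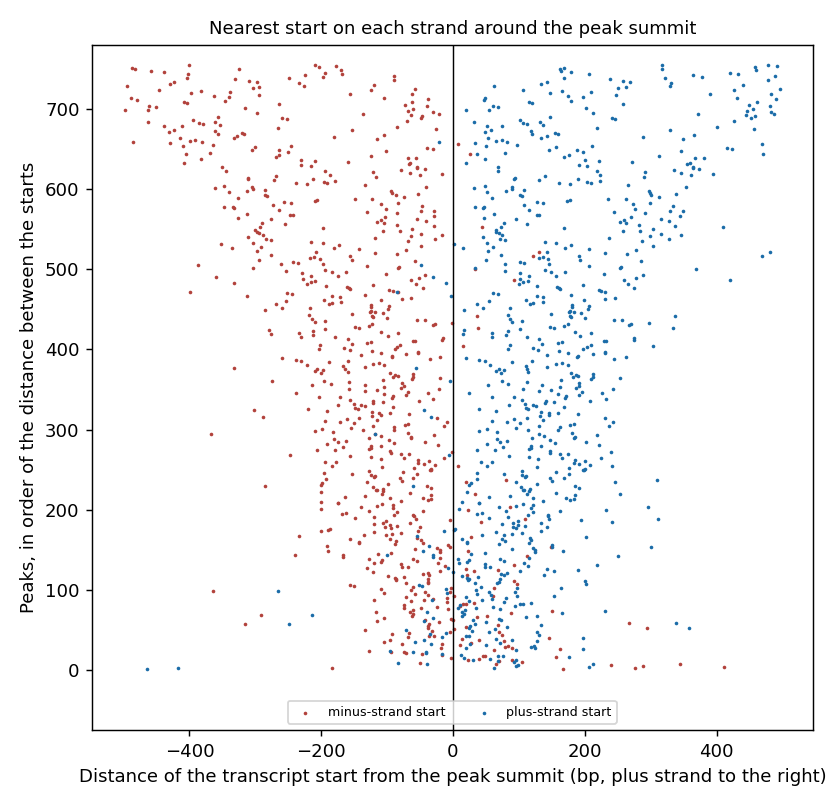
Each row is 1 of the 755 peaks, ordered from the shortest (bottom) to the longest distance between its starts; the x axis gives the distance in bp of the nearest minus-strand start (red) and plus-strand start (blue) from the summit at 0. Red points lie mostly to the left and blue points mostly to the right, as 636 summits fell between both starts; where starts are close together, at the bottom, both often lie on the same side.

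The 11 members whose annotated starts overlapped were not divergent in the strict sense. The strongest, CG4741/Adck1, had a pooled signal of 707, with 398 in replicate 2 and 310 in replicate 3. The others ranged from 340 at CG31808/Cyt-c-d, a pair that includes a cytochrome c gene, to 86.9 at SC35/eRF3, which pairs a splicing factor with a translation release factor. At CG44290/CG43447 the starts overlapped by 632 bp, the most of the 11.

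Position is given by the distance between starts, which the limit of 500 bp from both starts in part fixes: with starts over 500 bp apart a summit can meet it only between them. With starts up to 100 bp apart, 36 of 91 summits (39.6%) fell between them, and with starts from 201 to 300 bp apart 237 of 253 (93.7%) did. For pairs of very close starts the summit thus often lay just inside 1 of the genes, as at CG8372/CG8360 (57 bp apart), mRpL23/CG9004 (50 bp) and CG8892/CG34126 (27 bp).

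The strongest member was the peak of Chro/Ssl1 on 3L, with its summit at 22878887, 97 bp inside Chro (FBgn0044324), which encodes a chromodomain protein, while Ssl1 (FBgn0037202) encodes a subunit of the general factor TFIIH. Its pooled signal was 1733, with 1093 in replicate 2 and 646 in replicate 3. The pair mRpS23/CenG1A followed with 1504, 957 and 551 in the same order, and Art3/mRpS10 with 1476, 872 and 610. Both pairs join a gene of the small mitochondrial ribosomal subunit to an unrelated one, an ArfGAP gene in the first and an arginine methyltransferase gene in the second. The summit of mRpS23/CenG1A lay 379 bp from the mRpS23 start and 113 bp from that of CenG1A, while that of Art3/mRpS10 was 112 and 145 bp from its starts.

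The next members of the 20 strongest also ranked high in both replicates. Tcs5/CHMP2B, which pairs a gene of transfer RNA modification with one of the ESCRT-III complex, had a pooled signal of 1345, with 821 in replicate 2 and 522 in replicate 3. Pdrg1/Pal1, whose second gene encodes a peptide-amidating lyase, had 1271, 826 and 450. Atat/Shc, a tubulin acetyltransferase gene beside one for a signalling adaptor, had 1101, 785 and 316. Pairs of uncharacterised genes, CG8372/CG8360 at 1088 and CG5757/CG5098 at 1041, stood beside Fbw5/CG9147 at 1017, which includes an F-box gene, and CG7601/CIA30 at 1010, which includes a gene for assembly of respiratory complex I.

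The other 10 of the 20 strongest ranged from 988 at tank/CG12194 to 706 at CG11309/CG7632. They included Mkk4/SLIRP2 (840), with a kinase gene of the JNK pathway, Coq4/CG32176 (806), with a gene of coenzyme Q synthesis, and Bdp1/CG6565 (797), with a gene of the RNA polymerase III factor TFIIIB. Lon/PIG-F (745) pairs a mitochondrial protease with an enzyme of GPI anchor synthesis. The widest differences in rank were at CG11309/CG7632, which ranked 189 in replicate 2 and 27 in replicate 3, and at CG8892/CG34126, which ranked 46 and 156.

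**Figure D2:**
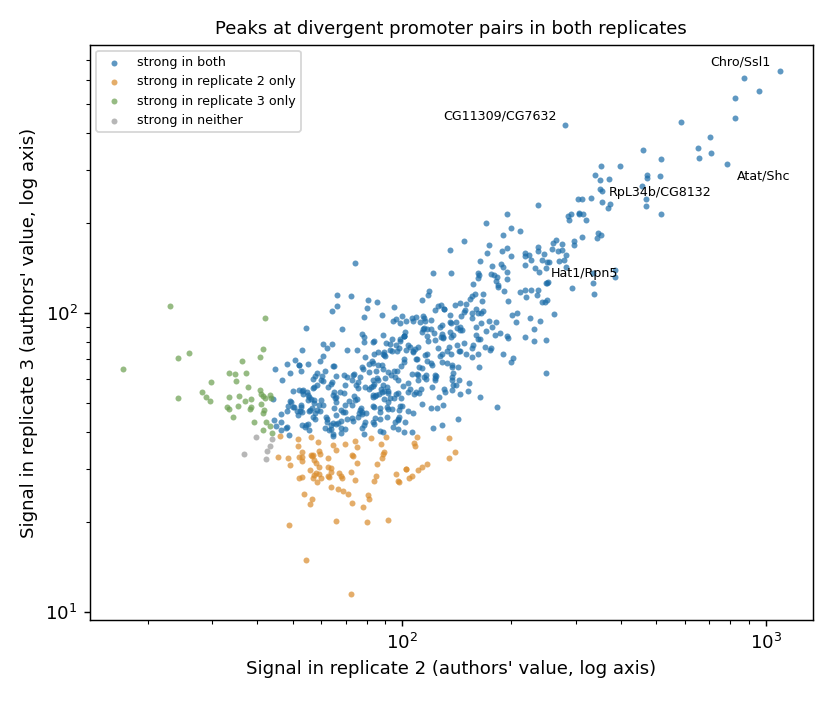
Each point is 1 of the 688 members with a summit within 100 bp in both replicate lists; the axes give the authors' signal in replicate 2 (x) and replicate 3 (y), both on log scales, and colours say in which replicates the summit was among the 3816 strongest. Chro/Ssl1 is highest in both at 1093 and 646, and CG11309/CG7632 lies above the band with 282 and 426.

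Most members were strong in both replicates. They come from the optimal list, which the authors had already thresholded for reproducibility, so the agreement below is in part set by that choice. A member counted as strong in a replicate where a summit lay within 100 bp of it among the 3816 strongest of that replicate, and 550 of 755 (72.8%, Wilson interval 69.6 to 75.9%) were so in both. A further 133 were strong in replicate 2 alone, 59 in replicate 3 alone and 13 in neither. At 1-gene promoters the share in both was 71.0%, and at peaks away from protein-coding promoters 66.7%. Replicate 2 alone accounted for 17.6% of members and replicate 3 alone for 7.82%, against 14.0 and 13.6% at 1-gene promoters and 17.3 and 11.9% of all optimal peaks. The strongest member not strong in both was Ciao1/HPS1, with a pooled signal of 264, 190 in replicate 2 and no matching summit in replicate 3. The next 4, yem/Ctl2, MnM/Girdin, Sfmbt/CG5439 and CG13531/RpL23, were likewise matched in replicate 2 and not in replicate 3. Across the 688 members matched in both lists Spearman's rho was 0.72 and Pearson's r on log2 signal was 0.778, as a description of peaks taken from shared libraries. The summits of the replicate lists lay a median of 20 bp from each other.

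The median signal of members was close to that of peaks at 1-gene promoters. The pooled signal had a median of 149 at members (quartiles 110 and 229, range 80.4 to 1733) and of 141 at 1-gene promoters, a ratio of 1.06. In replicate 2 the medians were 94.1 and 83.4 (ratio 1.13), and in replicate 3 they were 61.9 and 63.3 (ratio 0.978). These are the replicate signals at summits matched to the pooled list. Among the 3816 strongest peaks of replicate 3 alone the ratio was 1.06, and among those of replicate 2 alone 1.13. The direction in replicate 3 thus depended on which peaks were compared. Peaks away from protein-coding promoters had lower medians than members in all 3 lists, at 128, 72.6 and 58.9. Of members 44 (5.83%) had a pooled signal over 500, and of 1-gene promoter peaks 56 (5.13%). In 5 equal groups of the optimal list, from the strongest to the weakest peaks, members made up 22.8, 23.9, 21.9, 16.0 and 14.4%.

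The limit of 500 bp cut a continuous range. Just inside it lay CG1523/CG1647, with its farther start 496 bp from the summit and a signal of 149, and CG31626/Hr39, with 498 bp and 81.4. Just outside lay CG14968/ZnT63C with 501 bp and 167, and Syx16/HERC2 with 504 bp and 133.

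Most annotated pairs had no member peak. Of 2720 pairs of opposite-strand protein-coding genes with starts up to 1000 bp apart, 816 (30.0%) had one, and of the 1953 divergent pairs up to 500 bp apart, 731 (37.4%) had one. The 105 overlapping pairs had a member peak at 24 (22.9%). A summit counts for every pair of genes it reaches, so the 816 pairs share the 755 members. The intervals over pairs do not allow for this. Of the 1904 pairs without, 765 (40.2%) had a weaker region within the same limits in the pooled list, which holds background regions as well as peaks.

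A gene in a pair had an optimal peak more often than a gene outside one. Any optimal peak within 500 bp of a start was found at 34.3% of the 5141 genes with an opposite-strand start within 1000 bp and at 9.52% of the 8827 other protein-coding genes. Among genes with 1 annotated start the shares were 30.7% (Wilson interval 29.2 to 32.2%) and 6.00% (5.46 to 6.59%), and among genes with several starts 42.0 and 20.9%. A paired gene can take a peak that sits at its partner, so these shares count 1 summit for both genes.

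The share of pairs with a peak was highest for starts 201 to 300 bp apart. There, 252 of 529 divergent pairs (47.6%, Wilson interval 43.4 to 51.9%) had a peak, and at 301 to 400 bp 173 of 394 (43.9%, 39.1 to 48.8%). Closer pairs had fewer, with 132 of 419 (31.5%, 27.2 to 36.1%) up to 100 bp and 104 of 354 (29.4%, 24.9 to 34.3%) at 101 to 200 bp. From 401 to 500 bp the share was 27.2% (22.2 to 32.99%), and above 500 bp 61 of 662 pairs (9.21%, 7.24 to 11.7%) had a peak. The stretch in which a summit can lie within 500 bp of both starts becomes shorter as the starts move apart; how much of the differences this sets was not tested. The median pooled signal of members was 167 at 201 to 300 bp and between 135 and 149 in the other classes. The share strong in both replicates did not follow the share of pairs with a peak, and was 75.8% up to 100 bp, 78.8% at 101 to 200 bp, 77.9% at 201 to 300 bp and 63.9% at 301 to 400 bp.

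**Figure D3:**
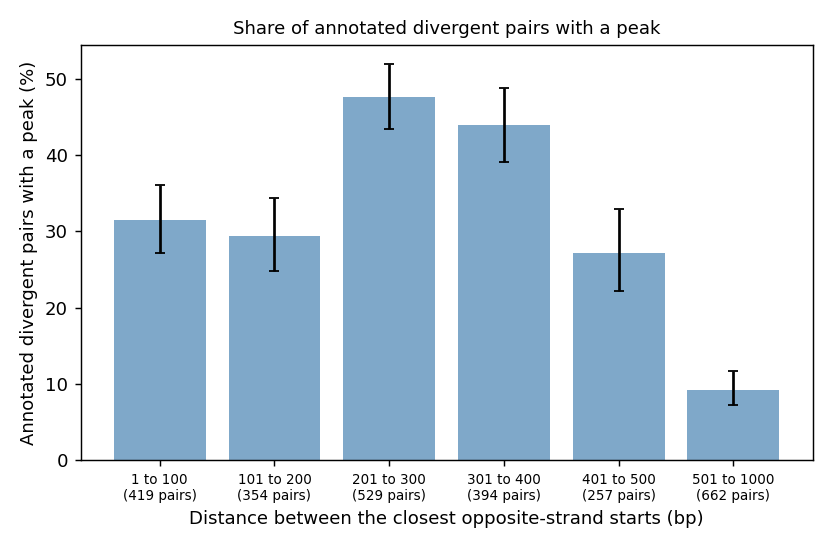
Bars give the percent of annotated divergent pairs with a member peak by the distance between their closest opposite-strand starts in bp, with 95% Wilson intervals and the number of pairs under each bar. The share is highest at 47.6% for starts 201 to 300 bp apart and lowest at 9.21% above 500 bp.

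The pairs of arm 3R had a peak most often and those of X least often among the large arms. On 3R, 268 of 699 pairs (38.3%, Wilson interval 34.8 to 42.0%) had one, on X 84 of 410 (20.5%, 16.9 to 24.7%), and on 3L, 2L and 2R the shares were 31.2, 29.6 and 26.1%. Members made up 25.4% of the peaks on 3R (232 of 913) and 10.6% of those on X (79 of 743). The median signal of members was 148 on both arms, so these arms differed in the number of members and not in their median signal.

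Ribosomal protein genes and chromatin regulators were the lists of 10 or more paired genes with the highest shares of paired genes at member peaks. Of all 5141 paired protein-coding genes 1549 (30.1%) had one, with a median signal of 149, and each list below is read against these values. Cytoplasmic ribosomal protein genes had one at 27 of 56 paired genes (48.2%), with a median signal of 185, and 20 of the 27 peaks were strong in both replicates. RpL34b/CG8132 had a pooled signal of 612, with 350 in replicate 2 and 279 in replicate 3, RpL32/CG7943 had 601, 372 and 232, and RpS27/Nup37 had 547, 312 and 240. At 20 of the 27 the ribosomal protein start was the nearer one. Of all 93 genes of this list, paired or not, 55 had an optimal peak at a start, so peaks at ribosomal protein genes were also found outside the members. Mitochondrial ribosomal protein genes had a member peak at 29 of 58, with a median signal of 137, and 13 of these 29 peaks were nearer to their own start. Their first 3 were mRpS23, mRpS10 and mRpL23 (721).

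The lists for energy supply, translation and protein turnover ranged from 29.6 to 44.4%. Oxidative phosphorylation genes had a peak at 16 of 45 (35.6%, median 177), led by the complex I genes ND-51 (341), ND-24 (329) and ND-MWFE (299). Proteasome genes had 8 of 26 (30.8%, median 125), led by Rpn5 of the proteasome lid, which shares a peak of 395 with the histone acetyltransferase gene Hat1. Translation factors had 8 of 27 (29.6%, median 145), among them eIF1 (273), whose partner is RpL28, and the cap-binding repressor gene eIF4EHP (272). Aminoacyl-tRNA synthetase genes had 7 of 23 (30.4%, median 253), with SerRS at 532, only 8 bp from the start of CG17260, then ArgRS (323) and GluProRS (310). Genes of ubiquitin conjugation and the COP9 signalosome had 12 of 27 (44.4%), with a low median of 116 and 6 of 12 strong in both, led by the deubiquitinase gene Usp12-46 (327).

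The lists for RNA processing, nuclear pores, Mediator and transcription lay within 10 percentage points of all paired genes, and chromatin regulators lay higher. Splicing and RNA processing genes had 19 of 50 (38.0%, median 146), with IntS6 of the Integrator complex at 382 and the cleavage factor gene CstF64 at 311. Nucleoporin and Mediator genes had 13 of 38 (34.2%, median 207), with Nup37, MED30/Rev1 at 524 and Nup98-96 at 441. Transcription machinery genes had 14 of 41 (34.1%, median 139), among them Ssl1, Polr2H at 520 and Polr2B at 257, both subunits of RNA polymerase II. Chromatin regulator genes had 9 of 19 (47.4%, median 207), with Chro, the insulator protein gene Cp190 at 356 and brm, the SWI/SNF ATPase gene, at 314, and 8 of the 9 were strong in both replicates.

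Replication and repair genes had 12 of 36 (33.3%, median 147), with Rad60/EloA at 294 and tefu, the ATM kinase gene, at 185 beside the chaperone gene Hsc70-4. Cell cycle genes had 11 of 33 (33.3%, median 152), with the mitotic kinase gene aurA at 231, Cap-H2 of condensin at 207 and Cdc16 of the anaphase-promoting complex at 176. Bub3/Cap-D2, with a pooled signal of 174, 96.3 in replicate 2 and 78.1 in replicate 3, was 1 of 2 members in which both genes came from the same list, a checkpoint gene and a condensin gene. The other was Exo84/Vps2, from membrane traffic, with 98.4, 64.5 and 38.8. Membrane traffic genes as a whole had 27 of 73 (37.0%, median 143), led by Fur1/Vps33B at 609, and autophagy genes 7 of 16 (43.8%, median 195), led by Atg17 at 339. Mitochondrial import and MICOS genes had 3 of 7, of which Mic26-27 at 223 was strongest.

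The lists of Pum partners and germ line genes were short, so their shares are coarse. Of the CCR4-NOT deadenylase complex, which Pum recruits to messenger RNA, 2 of 7 paired genes (28.6%) had a member peak. Pop2/CG6928 had a pooled signal of 306, with 184 in replicate 2 and 124 in replicate 3, and twin/cav had 188, 108 and 75.8. Both encode deadenylase subunits, and both peaks were strong in both replicates. Of germ line genes 3 of 7 (42.9%) had one, nanos (153), the gene of the Pum cofactor, piwi (104) and gcl (85.7), the last of which was strong in neither replicate.

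Lists of genes with restricted expression held few paired genes to begin with. Of 35 patterning genes 1 was paired (2.86%) and of 59 splicing genes 50 (84.7%), against 36.8% of all protein-coding genes. No member peak was found at the 14 paired of 121 cuticle protein genes, the 13 of 85 cytochrome P450 genes, the 2 of 11 muscle markers, the 1 of 10 neuron and glia markers, the 1 of 35 patterning genes or the 1 of 8 known Pum targets. Chemoreceptor genes had 1 of 27, Ir60e/CG13585, with a signal of 108. With 1 or 2 paired genes, the shares of 4 of these lists have no use as a measure.

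**Figure D4:**
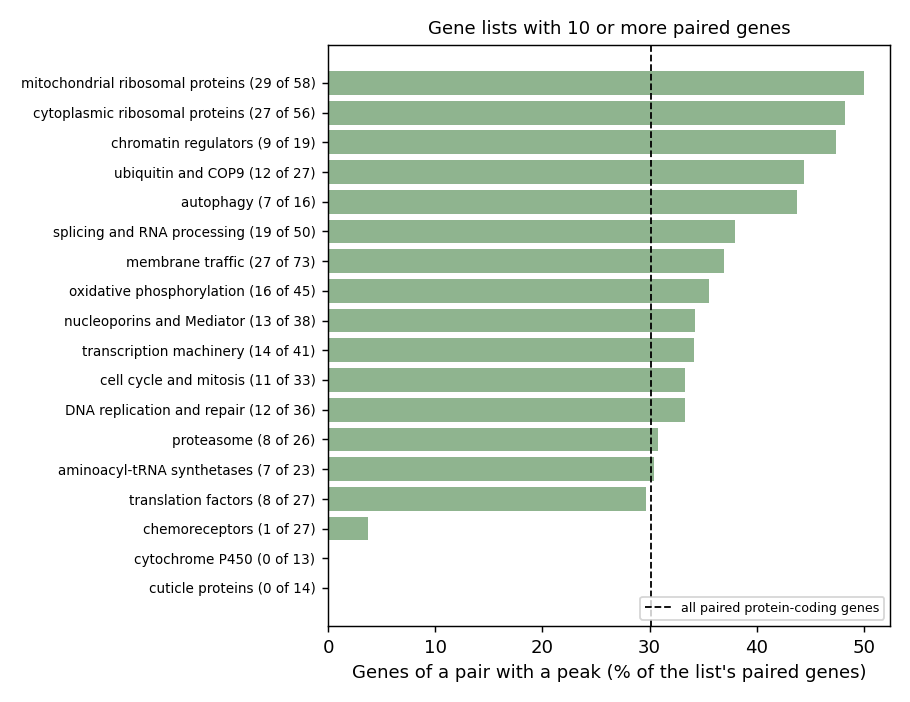
Bars give the percent of paired genes with a member peak for each gene list of 10 or more paired genes, with the counts in brackets. The dashed line marks all paired protein-coding genes at 30.1%; mitochondrial (29 of 58) and cytoplasmic (27 of 56) ribosomal protein genes lie highest and cuticle and cytochrome P450 genes at 0.

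DRE, its core and the E-box were more frequent near member summits than near the summits of 1-gene promoter peaks. In windows of 201 bp centred on the summit, searched on both strands, DRE was found at 87 members (11.5%, Wilson interval 9.44 to 14.0%), at 6.87% of 1-gene promoter peaks (5.51 to 8.52%) and at 0.413% of peaks away from protein-coding promoters. In windows of the same length 91 bp upstream of the outermost start of each of 13968 protein-coding genes, DRE was found in 7.67%. Its core CGATA, which every DRE contains, was found at 378 members (50.1%), at 36.6% of 1-gene promoter peaks and at 38.9% of all promoters. More than 1 core match was found at 207 members, a number taken at members only. A single DRE holds the core on each strand and counts as more than 1 match, so the 207 is no count of separate sites. The E-box was found at 112 members (14.8%), at 10.2% of 1-gene promoter peaks and at 12.2% of all promoters. GAGA (GAGAG) was found at 13.6, 23.1 and 22.2% in that order and was thus rarer at members. The TATA box (TATAAA) was found at 33.9% of members, 28.6% of 1-gene promoter peaks and 36.3% of all promoters. Median GC content was 35.8% at members, 37.3% at 1-gene promoter peaks and 37.8% at all promoters. The nearer start was a median of 75 bp from the summit at members and 147 bp at 1-gene promoters. Windows reaching 100 bp from the summit therefore held a start more often at members. How much of the differences this sets was not tested.

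DRE was found at similar shares of divergent pairs with and without a peak. Windows centred between the closest starts held DRE at 10.3% of the 731 divergent pairs up to 500 bp apart with a member peak (8.26 to 12.7%) and at 11.5% of the 1222 without (9.79 to 13.4%). The core was found at 45.5 and 47.5%, and the E-box at 14.2 and 15.5%. GAGA was found at 14.6 and 14.5%. The intervals of these shares overlapped for all 4 elements. The median GC content of the windows was 32.8% with a peak and 33.8% without.

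Ohler 7 and the Initiator differed between pairs with and without a peak. Ohler 7 was found at 92 of the 731 pairs with a peak (12.6%, 10.4 to 15.2%) and at 88 of the 1222 without (7.20%, 5.88 to 8.79%). At member summits it was found at 147 windows (19.5%, 16.8 to 22.4%), at 1-gene promoter peaks at 8.70% (7.17 to 10.5%) and at all promoters at 6.43%. Here too, member windows held a start more often than those of 1-gene promoter peaks. The Initiator (TCAGTC or TCAGTT) went the other way. It was found at 12.6% of the pairs with a peak (10.4 to 15.2%), 21.4% of those without (19.2 to 23.8%) and 26.5% of all promoters. A midpoint window reaches both starts only where these are up to about 200 bp apart. Such pairs had a peak at 31.5% (up to 100 bp) and 29.4% (101 to 200 bp). From 201 to 300 bp 47.6% had one, from 301 to 400 bp 43.9% and from 401 to 500 bp 27.2%. How much of either difference these distances set was not tested. At member summits Ohler 1, the site of M1BP, was found in 3.18% (2.15 to 4.69%) and Ohler 6 in 1.72%, against 2.53 and 1.80% of all promoters. Ohler 1 was found at 2.46% of pairs with a peak (1.56 to 3.86%) and 4.75% of those without (3.69 to 6.09%). Ohler 6 was found at 2.05% (1.25 to 3.36%) and 3.44% (2.55 to 4.61%). The intervals overlap in both cases, for Ohler 1 only barely, and overlap does not show that the shares are equal.

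Ohler 7 and DRE lay nearer to the starts than to the summits, by their medians. So did Ohler 1, the DRE core, the E-box, DPE and the CTCF core (AGGNGGC), while the other elements searched lay nearer to the summits. Of members with Ohler 7, the match nearest to a start lay a median of 22 bp from it and the match nearest to the summit 51 bp from that, and 112 of 147 had a match within 50 bp of a start. At 120 of the 147 (81.6%) the match nearest to a start ran on the strand of that gene, and at 12 of the 13 members with Ohler 6 it did. For DRE, which reads the same on both strands, the nearest match lay a median of 29.5 bp from a start and 43.5 bp from the summit. The Pum element lay a median of 98.5 bp from a start and 52.5 bp from the summit. Matches were searched only within 100 bp of the summit, which bounds these distances. Over the 13 elements the median distance to the summit ran from 33.5 bp (Ohler 6) to 64 bp (DPE). The distance to the summit is therefore no measure of a preference for it.

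The Pum element was no more frequent at members than elsewhere. It was found in DNA at 57 members (7.55%, 5.87 to 9.66%), at 7.97% of 1-gene promoter peaks, at 10.4% of peaks away from protein-coding promoters and at 7.49% of all promoters. Pairs with a peak held it at 7.52% and pairs without at 9.002%. The strongest member with the element, Pex11ab/CG8320, which includes a peroxisome gene, had a pooled signal of 629, with 340 in replicate 2 and 289 in replicate 3. Members with the element had a median pooled signal of 160 and those without of 149. This difference was seen in neither replicate, with 93.6 against 94.1 in replicate 2 and 61.4 against 61.9 in replicate 3.

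Signal differed in both directions with the elements. Members with DRE had a median pooled signal of 144 (83.0 in replicate 2 and 55.8 in replicate 3) and those without 151 (95.6 and 62.4). Those with Ohler 7 had 141 and those without 155, with 93.2 and 94.4 in replicate 2 and 54.7 and 63.3 in replicate 3. Those with the E-box had 154 and those without 149. For the E-box the direction was reversed in replicate 2 (92.2 against 94.7) and kept in replicate 3 (63.5 against 61.5). The 106 members with the Initiator had 177 against 148, with 106 and 93.0 in replicate 2 and 64.3 and 61.5 in replicate 3. Members with the TATA box had 162 against 144, and those with the DRE core 142 against 163. The 13 members with Ohler 6 had 114 in the pooled list against 150, but 72.7 against 61.8 in replicate 3. The 24 members with Ohler 1 had 109 against 151, and 13 of the 24 (54.2%) were strong in both replicates against 73.5% of the rest. The 37 members with the CTCF core (AGGNGGC) had 207 against 149, with 122 and 93.1 in replicate 2 and 81.6 and 61.2 in replicate 3.

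**Figure D5:**
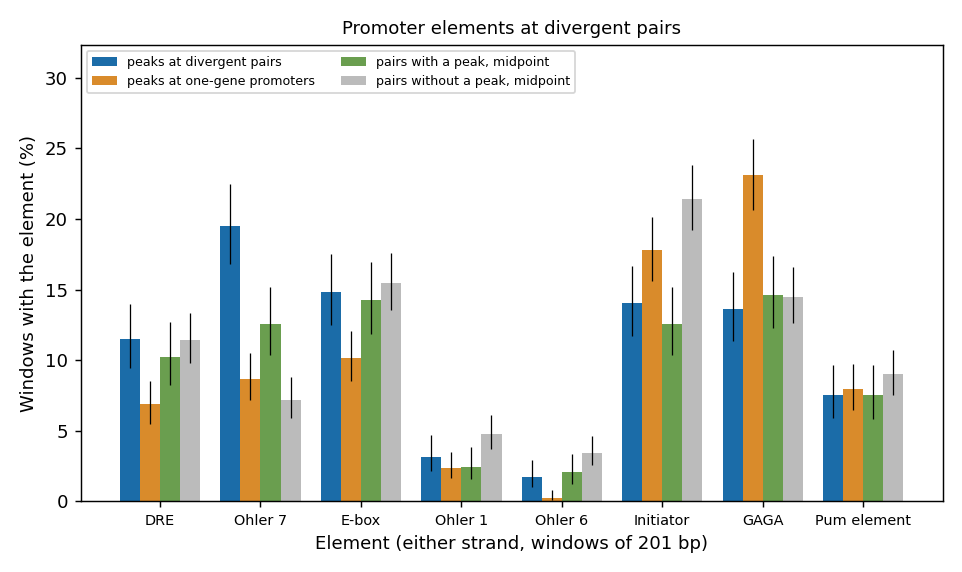
Bars give the percent of 201 bp windows with each element on either strand, with 95% Wilson intervals, for 755 member summits, 1092 summits at 1-gene promoters, and the midpoints of 731 divergent pairs with and 1222 without a member peak. Ohler 7 is higher at pairs with a peak (12.6 against 7.20%) and the Initiator lower (12.6 against 21.4%), while the intervals for DRE overlap. Midpoint windows reach both starts only where these are up to about 200 bp apart.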

How the data were processed

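Both replicates and the pooled list were used. The authors deposited, per the file layout, a signal value and a −log10 q-value for each peak; they also deposited 1 list per replicate (30000 rows), 1 pooled list (26275 rows) and 1 optimal list (3970 rows), on dm6. The optimal list is labelled as thresholded by IDR, a measure of reproducibility. The sources used here do not give the peak caller, its settings or the threshold. Ranks follow the signal, since 741 members (98.1%) were tied at the top −log10 value. Starts came from Ensembl release 115 (BDGP6) and sequences from the RefSeq copy of Release 6; coordinates are 1-based. Shares have 95% Wilson intervals. No comparison between samples exists, since both replicates form 1 group, and no test was run over regions. The members, the 25 gene lists and the 13 elements were chosen with earlier results of these data known, and some list symbols were matched to the annotation after the files were seen. Genes named are the 20 strongest members strong in both replicates, up to 3 genes per list, those next to the 500 bp limit and the strongest with an element; others were chosen after their values were seen. Overlapping gene models and gene families share summits, which count for each gene. The code was tested on simulated data. The code ran in Python 3.11.15, with pandas 2.3.3, numpy 2.4.6, matplotlib 3.10.9 and scipy 1.17.1.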

Additional observations from a re-analysis of the deposited data

How the results depend on the processing

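No paired analysis was possible because there is 1 group. Of 62 alternative values over 15 settings, 39 stayed within the interval or spread of the reported value and 23 moved. With a window of 250 bp, members were 12.7% of peaks, the ratio of median signal to 1-gene promoters was 1.16, 78.4% were strong in both replicates and 26.6% of pairs had a peak; with 1000 bp, members were 24.2% and 25.7% of pairs had a peak. With no summit dropped, 67.7% were strong in both. With the outermost start of each gene, members were 18.3% and 77.7% of summits lay between the starts. Among the stronger 50% of peaks, members were 23.0%, the ratio was 0.928, below 1, 92.3% were strong in both and 18.0% of pairs had a peak. With peaks strong in both replicates, 22.2% of pairs had one, and with divergent pairs up to 500 bp apart 37.4%. Matching summits within 50 bp gave 60.9% strong in both and within 200 bp 76.8%. Windows of 50 bp on either side held DRE at 7.02% of members and of 200 bp at 20%. Leaving out each replicate in turn gave members as 18.5 to 19.97% of peaks, a ratio of 1.06 to 1.13, 28.1 to 30.2% of pairs with a peak and 81.4 to 84.9% of summits between the starts. The share strong in both replicates has no value when 1 replicate is left out or when only such peaks are kept. The causes of these shifts were not tested. Read depth is unknown, so no limit on detection can be given for pairs without a peak.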

Other observations

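Some members joined genes that are related to each other; these were picked after their values were seen. The ferritin genes Fer1HCH and Fer2LCH, which encode the heavy and light chains of the iron storage protein, start 98 bp apart, and their peak, 266 bp inside Fer2LCH, had a pooled signal of 589, with 356 in replicate 2 and 236 in replicate 3. The neprilysin-like genes Nepl19 and Nepl20 start 670 bp apart and shared a peak of 155. These values stand beside a median of 149 over all members.

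Most members (715 of 755) held starts of 2 protein-coding genes, and 40 held 3 or more. The most was 10, at the locus of the separately annotated pieces of mod(mdg4), whose messenger RNAs are made by trans-splicing from both strands, with a signal of 453. PIG-M/NC2alpha held 5 genes, with 424. In 6 pairs, 2 separate summits met the rule. At least 1 of DRE, Ohler 1, Ohler 6, Ohler 7 and the E-box was found near the summit at 316 members, and 23 members held both DRE and Ohler 7. These counts were made at members only, so they do not set members apart from other peaks or promoters.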
